A study of Mus musculus with 15 samples.

Results

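The expression of 36 genes of glycolysis and of the hypoxia-inducible factor 1 (HIF-1) pathway was described in BV2 cells, a mouse microglial line. They are the genes, out of 54390 in the count tables, that carry 1 of 36 chosen symbols, and are taken in pathway order from glucose import to lactate export, then HIF-1, its hydroxylases and its other targets. Glycolysis turns glucose into pyruvate in the cytosol, and lactate dehydrogenase and the monocarboxylate transporters dispose of pyruvate as lactate when it does not enter mitochondria. The same enzymes are classic targets of HIF-1. Its alpha subunit, *Hif1a*, is marked for destruction by prolyl hydroxylases when oxygen is present, and the stable protein pairs with *Arnt* and binds short DNA elements with the core letters ACGTG or GCGTG. In macrophages this pathway is known for carrying the rise of glycolysis on inflammatory activation.

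RNA of 15 libraries was sequenced in 4 groups: WT non-foamy cells (n = 4) and *Trem2*-/- non-foamy cells (n = 3) had medium alone, and WT foamy cells (n = 4) and *Trem2*-/- foamy cells (n = 4) had 20 μg/mL soluble cholesterol overnight. All groups are the same line, and no group holds primary cells. *Trem2* is a lipid-sensing receptor of macrophages. Per the study's methods the knockout cells descend from single cells, first as a Cas9-expressing BV2 clone and again after editing by limiting dilution, so the loss of *Trem2* and other differences of that clone cannot be told apart. Whether the WT libraries come from the same Cas9 clone is not given in the sources used here. The cholesterol was carried by methyl-beta-cyclodextrin while the controls had medium alone, so carrier and cholesterol cannot be told apart. Nothing in the labels says that the libraries of a group came from separate cultures, so p-values measure the spread between these libraries, which may be technical.

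The libraries held 23538963 to 41683825 counted reads. The libraries farthest from their own groups were WT non-foamy replicate 3, WT foamy replicate 1 and *Trem2*-/- foamy replicate 4, with a median absolute deviation of 0.14, 0.12 and 0.12 on the log2 scale over all genes, against 0.054 to 0.092 in the other 12. Counts that lead the text below are therefore also given without these 3 libraries. Levels are given in CPM, counts scaled to the size of the library. *Trem2* stood at 327 to 415 CPM in the 8 WT libraries and at 214 to 232 in the 7 knockout libraries, so its transcript was reduced, not absent, and does not measure the protein. Of 12 macrophage and microglia markers, *Tyrobp*, *Cd68* and *Csf1r* were high (the lowest value in any library was 324 CPM, of *Csf1r*), while the microglia genes *Sall1*, at 0 in every library, and *Tmem119*, at 0.374 CPM on average, were nearly absent. Fibroblast markers were at 0 in every library for 6 of 6 genes, and the astrocyte and neuron lists summed to at most 0.741 and 0.348 CPM in any library. Of the oligodendrocyte list, *Mog* and *Olig2* were at 0, and *Cnp*, which is also made outside that lineage, reached 11.5 to 23.1 CPM.

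Of the 36 members, 32 had enough counts to be tested (about 10 counts or more in 3 libraries or more) and 4 did not. *Ldhb*, the heart form of lactate dehydrogenase, had no count in any library. *Eno2*, the neuronal enolase, had 2 counts in all, and *P4ha2*, a collagen prolyl hydroxylase, had 4, each in a single library of the *Trem2*-/- non-foamy group. *Adm*, which encodes adrenomedullin, had 0 to 6 counts per library. The symbol *Aldoa* stands on 2 rows, and the gene with 44678 to 82080 counts per library is described here, not the one with 6 to 36. A level of 0 in these libraries is a limit of their depth and not proof of absence.

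**Figure D1:**
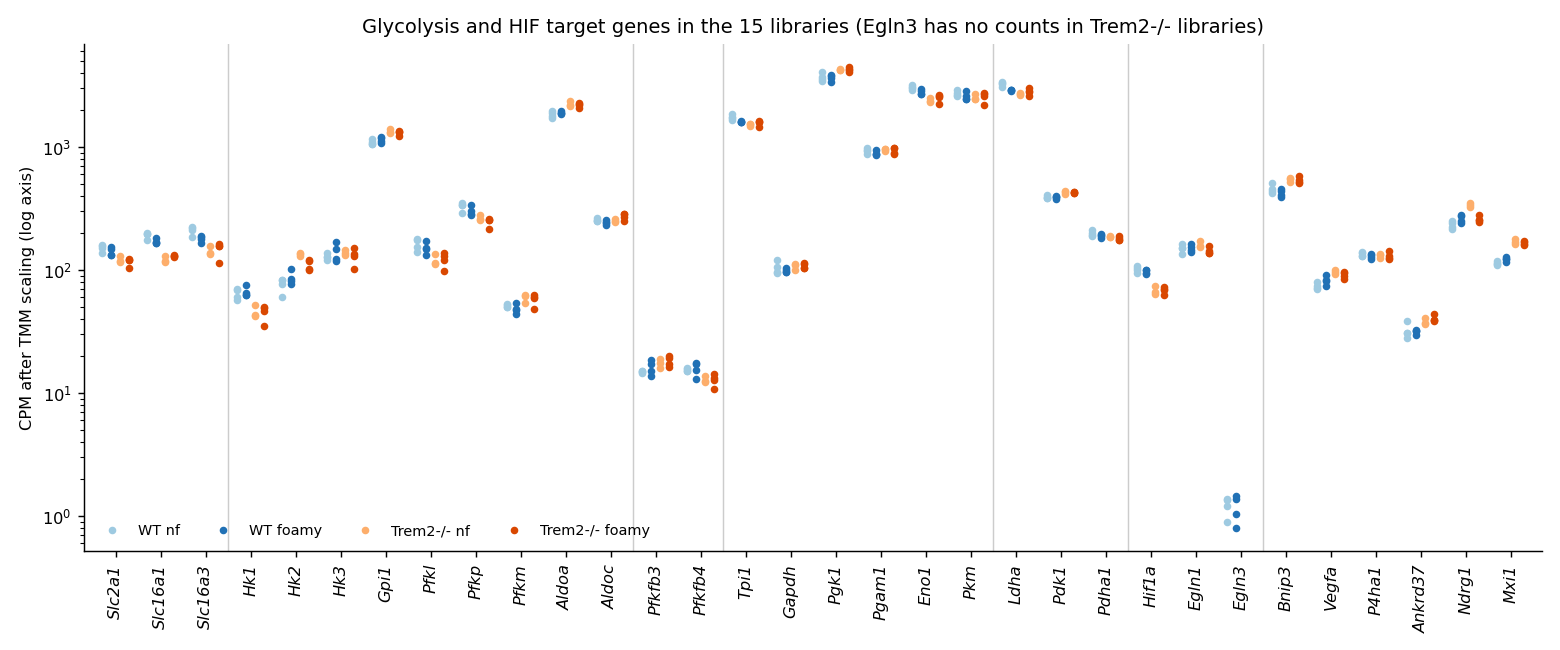
Levels of the 32 tested members in each of the 15 libraries, in pathway order; each point is 1 library, in CPM after TMM scaling on a log axis, coloured by group. Most members differ by less between groups than between genes, and Egln3 has no point in the 7 knockout libraries because it had no counts there.

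Levels of different genes are compared per kilobase of exon. On that scale *Pgk1*, which makes the first ATP of the pathway, had the highest mean over the 15 libraries, 1757 CPM per kilobase. *Ldha*, which reduces pyruvate to lactate, followed with 883, and *Aldoa* with 697. *Hif1a* had 14.3 CPM per kilobase and *Egln3* had 0.238. After TMM scaling the 36 members summed to means of 21923 and 21008 CPM in WT non-foamy and WT foamy libraries. In *Trem2*-/- non-foamy and foamy libraries the means were 21617 and 21666 CPM. The scaling factors were 0.966 to 1.11 in WT and 0.918 to 0.983 in knockout libraries. As shares of unscaled counts, the knockout groups would therefore stand lower beside WT than in these sums. On the same scale the summed enzymes from hexokinase to lactate dehydrogenase overlapped between the genotypes. They stood at 18188 to 20035 CPM in the WT libraries and 18030.0 to 19815 CPM in the knockout libraries.

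Some members share sequence with other genes, and neither the strand setting nor the handling of reads with several matches is given in the sources used here. Windows of 50 bases that occur in other genes made up 53.9% of the exon windows of *Pgk1*, 47.2% of *Bnip3*, 36.2% of *Pgam1*, 25.99% of *Eno1*, 25.8% of *Pkm* and 25.1% of *Gapdh*. The values of these 6 genes are therefore uncertain. *Gapdh*, usually among the most abundant transcripts, had only 25.3 CPM per kilobase here.

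*Trem2*-/- cells differed from WT cells at most members, and in both directions. Without cholesterol, 21 of 32 tested members were called (edgeR quasi-likelihood test, Benjamini-Hochberg adjusted p under 0.05 over 14237 genes), 10 higher and 11 lower in *Trem2*-/- cells. Over all genes 43.6% were called, 21.0% higher and 22.6% lower. With cholesterol, 19 were called, 10 higher and 9 lower, against 30.2% of all genes, 14.3% higher and 15.9% lower. The median size of the difference over the 32 members was 0.26 (log2) without and 0.20 with cholesterol, beside 0.32 and 0.22 over all genes tested. The groups did not overlap at 24 members without cholesterol, where 46.1% of all genes had separate groups, and at 15 with cholesterol, where 28.8% had. *Egln3* is among the members called lower and among those with separate groups, and it passed the filter only through the WT libraries.

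**Figure D2:**
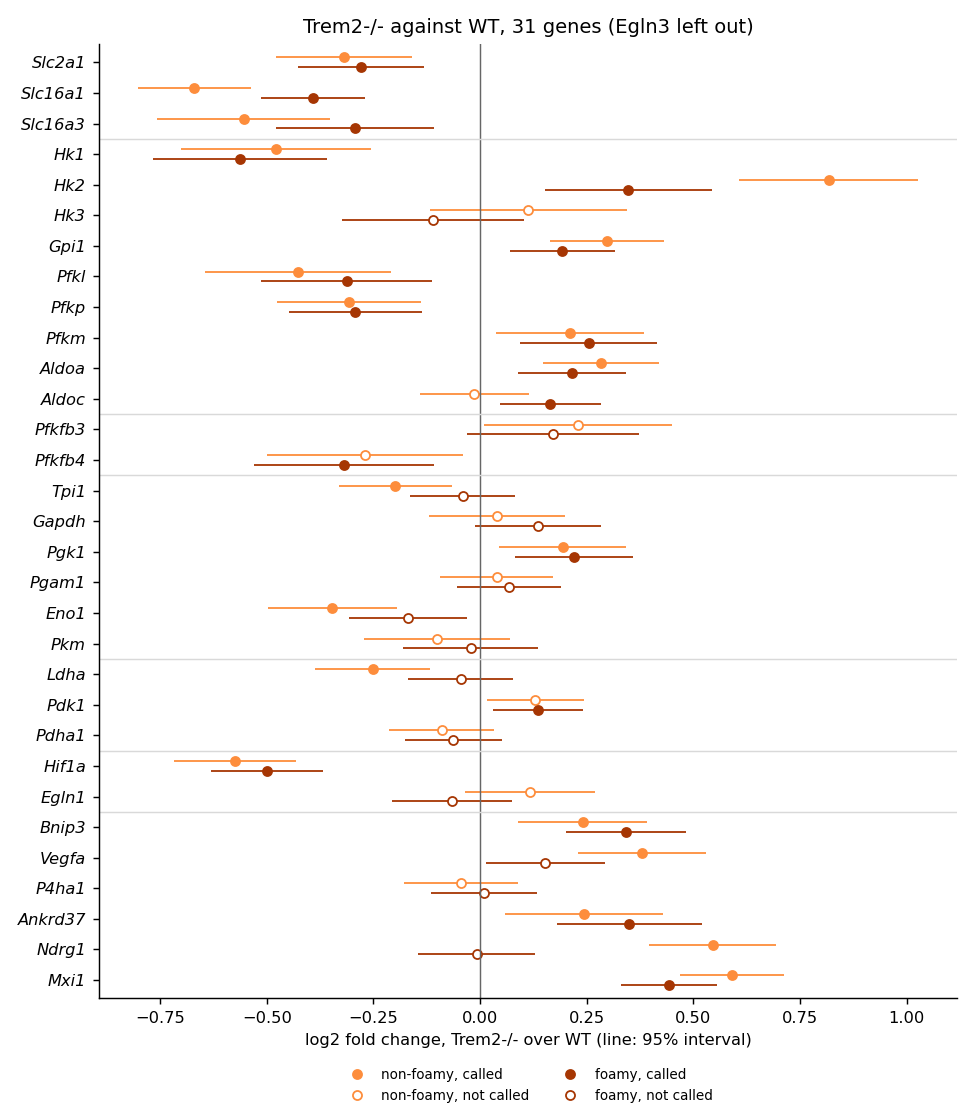
Difference between Trem2-/- and WT cells for 31 members in pathway order, without (light) and with cholesterol (dark), as log2 fold change with its 95% interval; filled points were called and open points were not. The transporters, Hk1, Pfkl, Pfkp and Hif1a lie to the left and Hk2, Gpi1, Aldoa, Bnip3, Ankrd37 and Mxi1 to the right under both conditions, and with scaling by total counts alone the second set keeps its sign but part of its calls.

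In both conditions, which use different libraries, 8 members were called lower (*Slc2a1*, *Slc16a1*, *Slc16a3*, *Hk1*, *Pfkl*, *Pfkp*, *Hif1a* and *Egln3*) and 8 called higher (*Hk2*, *Gpi1*, *Pfkm*, *Aldoa*, *Pgk1*, *Bnip3*, *Ankrd37* and *Mxi1*). No member was called in opposite directions. The scaling mattered for the second set. Libraries scaled by their total counts alone shifted the median of all genes to −0.13 in both comparisons, and calls without cholesterol then split into 5 higher and 14 lower, those in foamy cells into 3 and 13. The 8 members that were lower in both conditions stayed called under that scaling, while of the 8 that were higher in both conditions only *Mxi1* did in both. *Egln3*, which is in the lower set, passed the filter only through the WT libraries, so its call adds no support here. With total counts alone, *Pfkfb4*, *Pdha1* and *P4ha1* gained a call (lower) without cholesterol, as did *Tpi1*, *Eno1*, *Ldha* and *Pdha1* with it. Without the 3 farthest libraries, 24 and 18 members were called, where 50.4% and 32.04% of all genes were.

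Dividing-cell genes moved with the genotype. All 14 of 14 listed genes were called lower in *Trem2*-/- cells in both conditions, with a median of −0.78 without and −0.52 with cholesterol, and their summed level was 2540 to 3110 CPM in WT and 1756 to 1943 CPM in knockout libraries. The macrophage and microglia list had 6 genes higher and 2 lower of 11 tested in each condition, and its sum was 3216 to 3934 CPM in WT and 4567 to 4890 CPM in knockout libraries. Of the thinly expressed lists, the 1 astrocyte gene tested was higher without cholesterol and 2 of 3 oligodendrocyte genes were lower in both conditions. Beside these lists, 21.0% of all genes were called higher and 22.6% lower without cholesterol, and 14.3% and 15.9% with it. The part of these lists in the differences of the members was not tested. In bulk RNA, fewer cells that express a gene and less of its RNA per cell cannot be told apart.

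The 3 transporters at the ends of the pathway were all lower in *Trem2*-/- cells. *Slc16a1* (chromosome 3, 104638668 to 104658462, plus strand, GRCm38) encodes MCT1, which carries lactate and pyruvate across the plasma membrane. It stood at 197, 194, 177 and 202 CPM in WT non-foamy libraries and 115, 119 and 129 CPM in *Trem2*-/- non-foamy libraries, a log2 difference of −0.67 (s.e. 0.064, adjusted p = 1.8e-08). With cholesterol it stood at 167, 167, 169 and 183 CPM in WT and 133, 131, 131 and 128 CPM in *Trem2*-/- libraries, a difference of −0.39 (s.e. 0.059, adjusted p = 2.36e-05). Every knockout library lay below every WT library. *Slc16a3* encodes MCT4, the lactate exporter of highly glycolytic cells. Its level was 211, 218, 186 and 222 CPM in WT against 135, 137 and 157 CPM in knockout cells without cholesterol (−0.55, s.e. 0.098, adjusted p = 7.05e-05). With cholesterol it was 190.0, 178, 165 and 186 CPM against 156, 162, 157 and 113 CPM (−0.29, s.e. 0.089, adjusted p = 0.0156), and 1 knockout library, replicate 4, was far below its group. Without that library the difference was −0.19 and was no longer called (adjusted p = 0.0572). *Slc2a1*, the glucose carrier GLUT1, was lower by a smaller amount: its log2 difference was −0.32 (s.e. 0.077, adjusted p = 0.00177) without and −0.28 (s.e. 0.071, adjusted p = 0.00443) with cholesterol, and the groups did not overlap in either condition.

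Isozymes of the first steps moved in opposite directions. Hexokinases phosphorylate glucose and so hold it in the cell. *Hk2*, the inducible form (chromosome 6, 82725025 to 82774454, minus strand), had the largest rise of all members without cholesterol. Its level was 77.3, 83.2, 60.6 and 82.9 CPM in WT and 138, 129.8 and 135 CPM in *Trem2*-/- cells without cholesterol, a log2 difference of 0.82 (s.e. 0.10, adjusted p = 7.39e-07). With cholesterol it was 102.3, 85.0, 76.7 and 80.7 CPM and 101.5, 120.3, 117 and 99.5 CPM, a difference of 0.35 (s.e. 0.094, adjusted p = 0.00724). The groups were apart without cholesterol, and with cholesterol the highest WT library (replicate 1) lay above the lowest knockout libraries. That second call was lost with scaling by total counts alone (log2 difference 0.22, adjusted p = 0.206). *Hk1*, the form found in most tissues, went the other way. It stood at 60.4, 68.5, 56.7 and 69.7 CPM in WT and 43.1, 42.3 and 52.2 CPM in *Trem2*-/- cells without cholesterol (−0.48, s.e. 0.11, adjusted p = 0.000868). In foamy cells its values were 75.8, 62.7, 62.5 and 64.7 CPM and 46.0, 48.8, 49.6 and 35.2 CPM (−0.56, s.e. 0.098, adjusted p = 0.000136), again without overlap. *Hk3*, the hexokinase of myeloid cells, was not called, with intervals of the log2 difference from −0.12 to 0.34 and from −0.32 to 0.10.

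In CPM per kilobase of exon, *Hk3* made up most of the family in every group (57.4% to 63.3%), but not in counts undivided by length (43.5% to 47.9%). *Hk2* took 23.1 ± 1.81% of the hexokinase transcripts in WT non-foamy and 24.03 ± 0.822% in WT foamy libraries, against 34.4 ± 0.936% and 31.4 ± 2.26% in the *Trem2*-/- groups (mean ± SD). *Hk1* took 13.6 ± 0.627% and 13.03 ± 1.09% in WT and 8.20 ± 0.699% and 8.94 ± 0.488% in *Trem2*-/- libraries. These shares are descriptions and were not tested, and they rest on the exon lengths of 1 annotation.

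**Figure D3:**
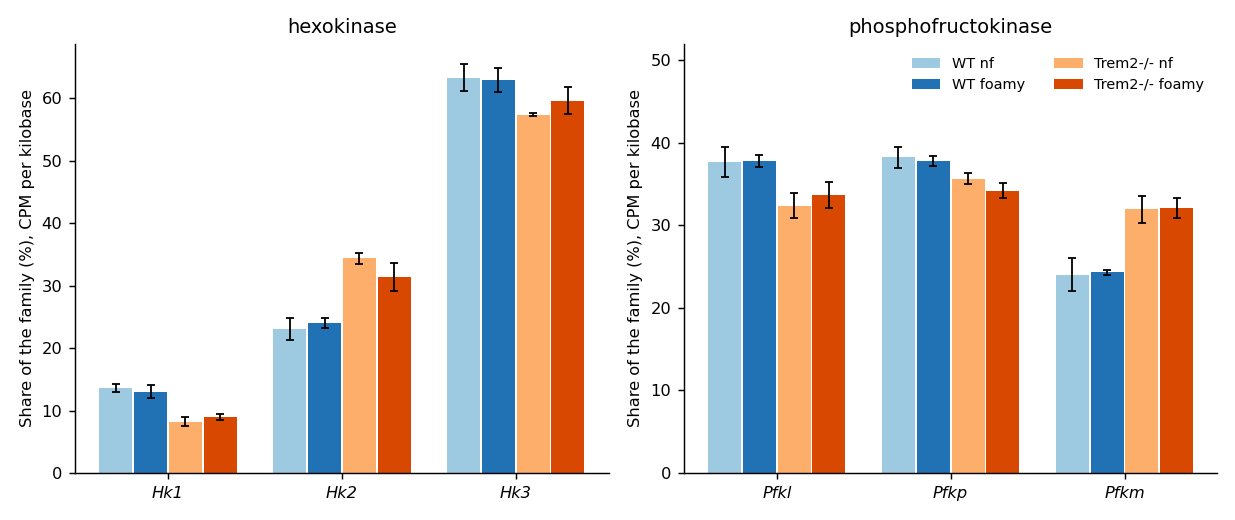
Shares of the 3 hexokinases (left) and the 3 phosphofructokinases (right) in CPM per kilobase of exon, as the mean of each group's libraries with the SD as error bar. Hk2 and Pfkm have larger shares and Hk1 and Pfkl smaller shares in the Trem2-/- groups, in orange, than in the WT groups, in blue.

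Phosphofructokinase, the main control point of the pathway, divided in the same manner. *Pfkl*, the liver form, was lower in *Trem2*-/- cells by a log2 difference of −0.43 (s.e. 0.11, adjusted p = 0.0021) without and −0.31 (s.e. 0.097, adjusted p = 0.017) with cholesterol. The second call was lost without WT foamy replicate 1 (−0.24, adjusted p = 0.0643) or without *Trem2*-/- foamy replicate 4 (−0.22, adjusted p = 0.0752). *Pfkp*, the platelet form, differed by −0.31 (s.e. 0.081, adjusted p = 0.00371) without and −0.29 (s.e. 0.075, adjusted p = 0.00473) with cholesterol. *Pfkm*, the muscle form, was higher, at 49.6, 52.3, 52.9 and 50.3 CPM in WT and 54.1, 61.8 and 62.1 CPM in knockout cells without cholesterol (0.21, s.e. 0.084, adjusted p = 0.0453). Its WT libraries were all below the knockout libraries there, but with cholesterol (0.26, s.e. 0.078, adjusted p = 0.0152) 1 knockout library, replicate 4, fell among the WT libraries. Neither call of *Pfkm* held with total counts alone. The first was also lost without any 1 of WT replicates 1, 2 and 4 and knockout replicates 2 and 3 (adjusted p 0.0623 to 0.163), with the replicate block and with no filter, the second without WT replicate 3 or knockout replicate 1 (0.0595 and 0.068). The share of *Pfkm* in the family was 24.03 ± 2.01% and 24.3 ± 0.303% in WT and 31.9 ± 1.62% and 32.1 ± 1.20% in *Trem2*-/- libraries. The bifunctional enzymes that make and remove the sugar phosphate activating phosphofructokinase were low, *Pfkfb3* at 13.7 to 20.1 CPM and *Pfkfb4* at 10.8 to 17.7 CPM per library. *Pfkfb4* was called lower with cholesterol (−0.32, s.e. 0.10, adjusted p = 0.0202) and missed the threshold without it (−0.27, s.e. 0.11, adjusted p = 0.0534). The call was lost without WT foamy replicate 1 or 2 or knockout foamy replicate 4 (adjusted p 0.0629 to 0.0787) and without the 3 farthest libraries, whereas in medium alone *Pfkfb4* passed the threshold in 6 alternative fits. *Pfkfb3* was not called in either condition (intervals 0.0088 to 0.45 and −0.031 to 0.37).

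*Gpi1*, which isomerizes glucose 6-phosphate, and *Aldoa*, which splits the doubly phosphorylated fructose, were both higher in *Trem2*-/- cells. *Gpi1* had 1047, 1153, 1088 and 1064 CPM in WT and 1313, 1308 and 1391 CPM in knockout cells without cholesterol (0.30, s.e. 0.064, adjusted p = 0.000611) and a difference of 0.19 (s.e. 0.060, adjusted p = 0.0169) with it. *Aldoa* had 1717, 1893, 1966 and 1779.8 CPM against 2191, 2171.2 and 2353 CPM (0.28, s.e. 0.066, adjusted p = 0.0012), and a difference of 0.22 (s.e. 0.061, adjusted p = 0.00963) with cholesterol. Neither gene's groups overlapped in either condition. *Aldoc*, the brain aldolase, differed by −0.013 (s.e. 0.062, adjusted p = 0.881) without and by 0.17 (s.e. 0.057, adjusted p = 0.0316) with cholesterol, and only the second was called. With cholesterol, leaving out WT replicate 3 or 4 or knockout replicate 2 ended the call of *Gpi1* (adjusted p 0.0505 to 0.0639), and leaving out WT replicate 3 or 4 or knockout replicate 1, 2 or 3 that of *Aldoc* (0.0555 to 0.103). The call of *Aldoc* was also lost with total counts alone (0.036, adjusted p = 0.715), with no filter and in the fit of only the groups compared.

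The enzymes of the payoff phase were called in both directions without cholesterol. *Gapdh*, *Pgk1*, *Pgam1*, *Eno1* and *Pkm* are among the genes named above for shared sequence, and their values are uncertain. Of 6 tested genes from *Tpi1* to *Pkm*, edgeR called 1 higher and 2 lower without cholesterol, and only *Pgk1* in foamy cells. It called 43.6% of all genes without and 30.2% with cholesterol. With cholesterol none was called lower in that fit, where 1, *Eno1*, had an unadjusted p under 0.05. *Eno1* was called lower there by DESeq2, with no filter, with the replicate block and with total counts alone (−0.30, adjusted p = 0.00419), and *Tpi1* with total counts alone (−0.17, adjusted p = 0.014). *Pgk1* was higher by 0.19 (s.e. 0.072, adjusted p = 0.0328) without and by 0.22 (s.e. 0.067, adjusted p = 0.0148) with cholesterol, with no overlap between groups. The first of these calls was lost without any 1 of its libraries except WT replicate 3 (adjusted p 0.0576 to 0.11). *Eno1*, the enolase of most cells, stood at 3021, 3200.4, 3055 and 2885 CPM in WT and 2351, 2312 and 2513 CPM in *Trem2*-/- non-foamy libraries (−0.35, s.e. 0.073, adjusted p = 0.000459), and the difference with cholesterol missed the threshold (−0.17, s.e. 0.067, adjusted p = 0.0606). *Tpi1*, which interconverts the triose phosphates, differed by −0.20 (s.e. 0.064, adjusted p = 0.0144) without cholesterol and was not called with it (interval −0.16 to 0.081). Without knockout replicate 2 the call of *Tpi1* was lost (−0.18, adjusted p = 0.069). *Gapdh*, *Pgam1* and *Pkm*, the dehydrogenase, mutase and pyruvate kinase of this stretch, were called in neither condition. Their intervals without cholesterol ran from −0.12 to 0.20 for *Gapdh*, from −0.093 to 0.17 for *Pgam1* and from −0.27 to 0.071 for *Pkm*. In medium alone *Pkm* was called lower when the 3 farthest libraries were left out (−0.13, adjusted p = 0.0291).

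At the fates of pyruvate, *Ldha* was lower in *Trem2*-/- cells without cholesterol. It had 3294, 3217, 3341 and 3076 CPM in WT and 2716, 2662 and 2766 CPM in knockout libraries (−0.25, s.e. 0.065, adjusted p = 0.00294), with every knockout library below every WT library. With cholesterol the log2 difference was −0.045 (s.e. 0.060, adjusted p = 0.613) and the groups overlapped, but it was called lower there with total counts alone. *Pdk1*, the kinase that shuts pyruvate dehydrogenase off, was called with cholesterol and just missed the threshold without it. Its log2 difference was 0.14 (s.e. 0.051, adjusted p = 0.0453) there and 0.13 (s.e. 0.055, adjusted p = 0.0592) without. That call was lost in 12 of 16 alternative fits, among them those without any 1 of its 8 libraries (adjusted p 0.0596 to 0.116). Without cholesterol *Pdk1* was called higher in 4 of 15 alternative fits. With total counts alone its differences were −0.0091 without and 0.0069 with cholesterol, and neither was called. *Pdha1*, a subunit of pyruvate dehydrogenase itself, was called in neither condition, with intervals from −0.21 to 0.034 and from −0.18 to 0.052. With total counts alone it was called lower in both (−0.23, adjusted p = 0.000505, and −0.19, adjusted p = 0.00194).

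Of the 3 regulators, *Hif1a* and *Egln3* were lower in *Trem2*-/- cells and *Egln1* was not called. *Hif1a* (chromosome 12, 73901375 to 73947530, plus strand) stood at 104, 99.6, 94.2 and 107 CPM in WT and 66.5, 73.5 and 63.8 CPM in *Trem2*-/- cells without cholesterol (−0.57, s.e. 0.069, adjusted p = 5.04e-07). With cholesterol it was at 99.5, 99.1, 94.4 and 92.8 CPM and 72.2, 69.1, 62.1 and 69.7 CPM (−0.50, s.e. 0.063, adjusted p = 2.94e-06). No knockout library reached the lowest WT library, and the calls held in all 15 and 16 alternative fits. HIF-1 activity follows the protein's stability, which these counts do not measure.

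*Egln3* (chromosome 12, 54178981 to 54203860, minus strand) encodes PHD3, a prolyl hydroxylase that HIF-1 itself induces. It had 52, 28, 31 and 54 counts in WT non-foamy and 43, 60, 26 and 48 counts in WT foamy libraries, and 0 counts in all 7 knockout libraries. With 3 counts over the knockout group as a floor, the observed WT level stood 37.3-fold above it without cholesterol and 49.6-fold with it. The gene passed the filter only through the WT libraries, so its calls add no support to these counts. The gene was low even in WT cells, at 0.795 to 1.47 CPM. The knockout groups can be said to lie below the floor of 3 counts and no more. None of its 50-base windows occurs in another gene. *Egln1*, which encodes PHD2, the main oxygen sensor of most cells, was not called in either condition, with intervals from −0.034 to 0.27 and from −0.21 to 0.075.

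With TMM scaling the remaining HIF targets were higher or not called. Of the 6 that were tested, 5 were higher in *Trem2*-/- cells without and 3 with cholesterol. The shares of all genes called higher were 21.0% and 14.3%. In that fit none was called lower or had an unadjusted p under 0.05 for a lower level, and DESeq2 called none lower. With total counts alone, 3 were called higher without cholesterol (*Vegfa*, *Ndrg1* and *Mxi1*) and *P4ha1* was called lower (−0.18, adjusted p = 0.0164). *Mxi1*, a repressor that opposes Myc, had the second largest rise of all members without cholesterol and the largest with it. It stood at 109, 118, 112 and 113 CPM in WT and 168, 180.1 and 162 CPM in *Trem2*-/- cells without cholesterol (0.59, s.e. 0.059, adjusted p = 2.98e-08). With cholesterol it stood at 123, 123, 117 and 127 CPM and 169, 164, 161 and 171 CPM (0.44, s.e. 0.055, adjusted p = 2.01e-06). The groups were apart in both conditions and the calls held in every alternative fit. *Bnip3*, a mitophagy receptor, had 389, 437, 455 and 408 CPM in WT and 542, 509, 515 and 577 CPM in *Trem2*-/- foamy cells (0.34, s.e. 0.068, adjusted p = 0.000479), and a difference of 0.24 (s.e. 0.073, adjusted p = 0.00988) without cholesterol. *Ankrd37*, a small ankyrin-repeat gene, differed by 0.24 (s.e. 0.089, adjusted p = 0.0303) without and 0.35 (s.e. 0.082, adjusted p = 0.00235) with cholesterol, and its groups overlapped only in the first. Its call without cholesterol was lost when WT replicate 1, 2 or 4 or knockout replicate 1 was left out (adjusted p 0.0726 to 0.152), with the replicate block, in the fit of only the groups compared and with total counts alone, and that of *Bnip3* when knockout replicate 1 was (0.22, adjusted p = 0.0516). Antisense transcripts overlap 22.3% of the exon bases of *Bnip3* and 26.4% of those of *Ankrd37*. *Vegfa*, the endothelial growth factor, was called higher without cholesterol, by 0.38 (s.e. 0.072, adjusted p = 0.000169), and differed by 0.15 (s.e. 0.067, adjusted p = 0.091) with it. With cholesterol it was called without WT foamy replicate 1 and without the 3 farthest libraries. The difference between these comparisons was not called (adjusted p = 0.228). *P4ha1*, a collagen prolyl hydroxylase, was called in neither condition, with intervals from −0.18 to 0.090 and from −0.11 to 0.13.

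**Figure D4:**
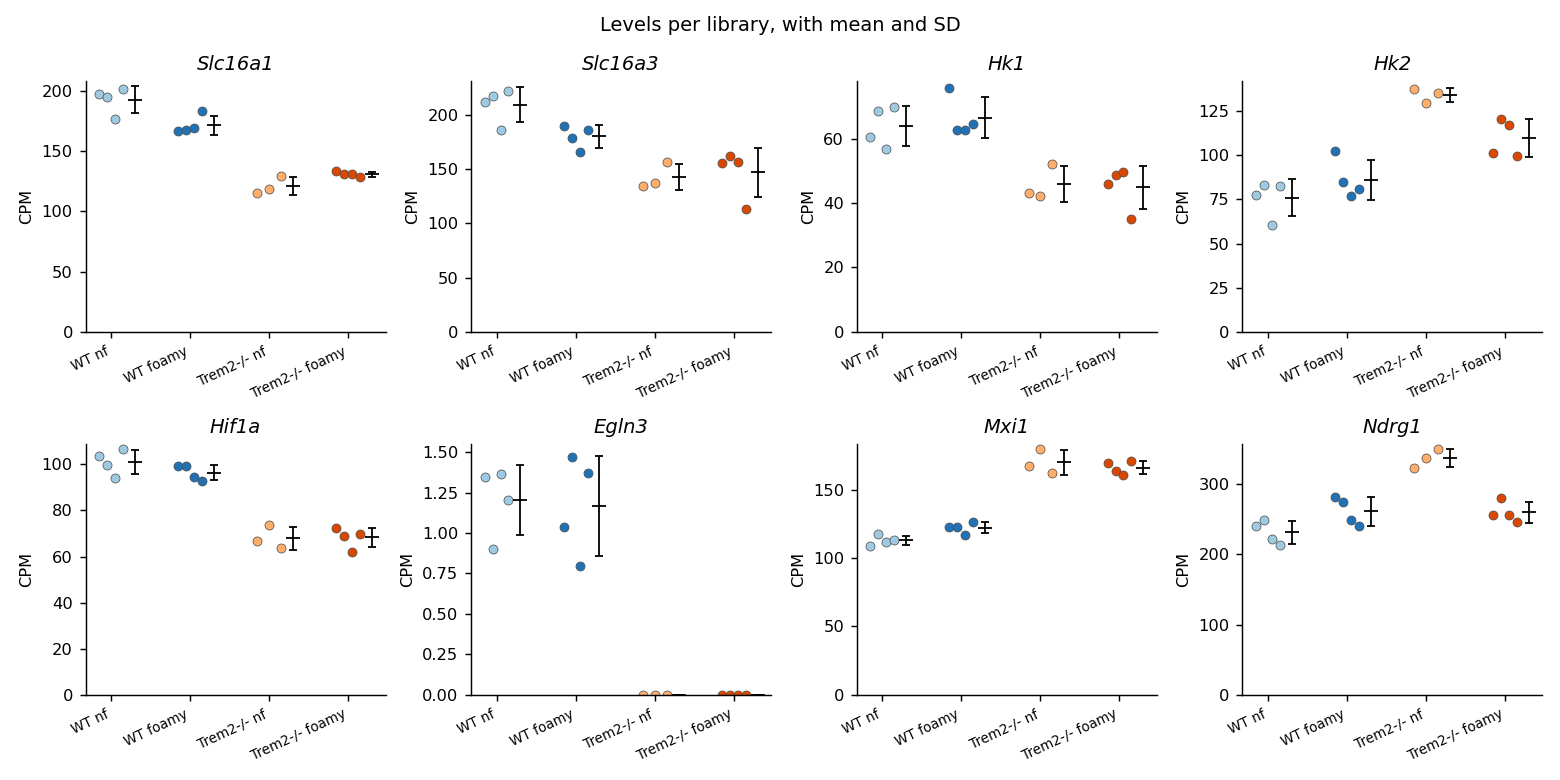
Levels of 8 members in CPM (nf, non-foamy), each point 1 library, with the mean and SD of each group beside the points; the axes start at 0. Slc16a1, Slc16a3, Hk1 and Hif1a are lower and Mxi1 and Hk2 higher in the Trem2-/- groups, Egln3 is at 0 in 7 knockout libraries, and Ndrg1 is high only in Trem2-/- non-foamy cells.

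Promoters are shown for 6 members that moved in opposite directions. They were chosen after the values were seen, and each window shown holds ACGTG. The display therefore cannot tell whether these letters follow the direction of change. Windows of *Hk1*, *Pfkl* and *Pfkp*, which were lower, and of *Gpi1*, which was higher, held no ACGTG and are not shown. Each is the 250 bases before a RefSeq start site (GRCm38.p6), 5′ to 3′ on the gene's strand. ACGTG on either strand (read as CACGT on the other) is in capitals. Higher in *Trem2*-/- cells were *Hk2* (chr6:82774455-82774704, minus strand), *Bnip3* (chr7:138909507-138909756, minus), where both readings overlap in a single palindrome, and *Ankrd37* (chr8:45999851-46000100, minus). Lower were *Slc2a1* (chr4:119108495-119108744, plus), *Slc16a3* (chr11:120948817-120949066, plus) and *Egln3* (chr12:54203875-54204124, minus).
Hk2: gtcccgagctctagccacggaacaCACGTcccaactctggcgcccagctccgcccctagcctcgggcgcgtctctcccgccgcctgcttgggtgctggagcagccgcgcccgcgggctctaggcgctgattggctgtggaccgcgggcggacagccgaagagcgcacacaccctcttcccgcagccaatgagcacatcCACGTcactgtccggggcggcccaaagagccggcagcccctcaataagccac
Bnip3: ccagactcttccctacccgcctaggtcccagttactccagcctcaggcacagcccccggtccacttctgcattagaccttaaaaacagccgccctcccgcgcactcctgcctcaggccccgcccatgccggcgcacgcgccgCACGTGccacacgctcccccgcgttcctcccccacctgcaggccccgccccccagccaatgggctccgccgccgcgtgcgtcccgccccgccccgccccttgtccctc
Ankrd37: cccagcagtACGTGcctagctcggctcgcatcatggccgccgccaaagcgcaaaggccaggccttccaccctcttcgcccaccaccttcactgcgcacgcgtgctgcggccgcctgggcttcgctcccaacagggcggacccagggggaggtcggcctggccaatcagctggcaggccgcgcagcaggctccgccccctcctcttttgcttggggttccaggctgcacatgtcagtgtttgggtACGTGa
Slc2a1: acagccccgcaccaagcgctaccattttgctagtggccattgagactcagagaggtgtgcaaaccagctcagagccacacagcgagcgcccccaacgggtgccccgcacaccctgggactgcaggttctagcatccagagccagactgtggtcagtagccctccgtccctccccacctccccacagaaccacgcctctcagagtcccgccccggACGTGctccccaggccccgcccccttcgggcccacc
Slc16a3: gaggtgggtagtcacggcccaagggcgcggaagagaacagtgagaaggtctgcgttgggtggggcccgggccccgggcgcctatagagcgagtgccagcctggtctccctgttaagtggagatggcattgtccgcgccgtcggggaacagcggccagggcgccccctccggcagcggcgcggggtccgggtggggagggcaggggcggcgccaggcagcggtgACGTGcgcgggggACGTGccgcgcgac
Egln3: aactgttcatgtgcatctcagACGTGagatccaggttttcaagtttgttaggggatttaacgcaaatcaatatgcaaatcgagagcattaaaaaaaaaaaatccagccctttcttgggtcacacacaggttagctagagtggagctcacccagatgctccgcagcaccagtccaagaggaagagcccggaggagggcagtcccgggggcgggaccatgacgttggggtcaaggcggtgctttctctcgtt

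RefSeq start sites were found for 35 of the 36 members, 51 windows in all, of which 25 (49.0%) held ACGTG on either strand. The share was 16.6% of all 32851 windows of that length and 21.8% of the 12415 windows of tested genes. With GCGTG on either strand counted too, the shares were 80.4% of the members' windows, 38.6% of all and 55.2% of those of tested genes. The members were chosen as glycolysis genes and HIF targets. A higher share among them may follow from that choice and is not a result of these libraries. Among windows of members called higher without cholesterol, 11 of 17 held ACGTG, and among those of members called lower, 6 of 15. The order was the other way for GCGTG (5 of 17 against 9 of 15) and for either core (12 of 17 against 13 of 15). Several windows belong to 1 gene and overlap, and a match describes letters, not a bound site.

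Cholesterol changed the members little in WT cells. None of the 32 was called by edgeR (6 had an unadjusted p under 0.05, and DESeq2 called 2, *Slc16a1* and *Ldha*), where 2.80% of all genes were. Log2 changes ran from −0.22 for *Slc16a3* to 0.18 for *Hk2*, and, leaving out *Egln3*, all 31 intervals lay between −0.40 and 0.38. The median change was −0.061 over the members and 0.0053 over all genes. The groups were apart at 2 members, *Tpi1* and *Ldha*, both lower in foamy cells, against 9.71% of all genes. *Ldha*, for example, changed by −0.16 (s.e. 0.060, adjusted p = 0.153), and *Slc16a1* by −0.17 (s.e. 0.058, adjusted p = 0.126).

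This count depended on the libraries. Without WT non-foamy replicate 3, WT foamy replicate 1 and *Trem2*-/- foamy replicate 4, 6 members were called lower in WT foamy cells. They were *Slc16a3* (−0.30, adjusted p = 0.000947), *Pfkp* (−0.24, adjusted p = 0.00211), *Slc16a1* (−0.19, adjusted p = 0.0208), *Pfkl* (−0.23, adjusted p = 0.0295), *Ldha* (−0.14, adjusted p = 0.0347) and *Slc2a1* (−0.18, adjusted p = 0.0391), against 8.69% of all genes called in that fit. These are the transporters and 3 enzymes, each by less than 0.31 on the log2 scale. In all, 6 of 14 dividing-cell genes were called lower in the same comparison with every library kept, where 2.80% of all genes were called.

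**Figure D5:**
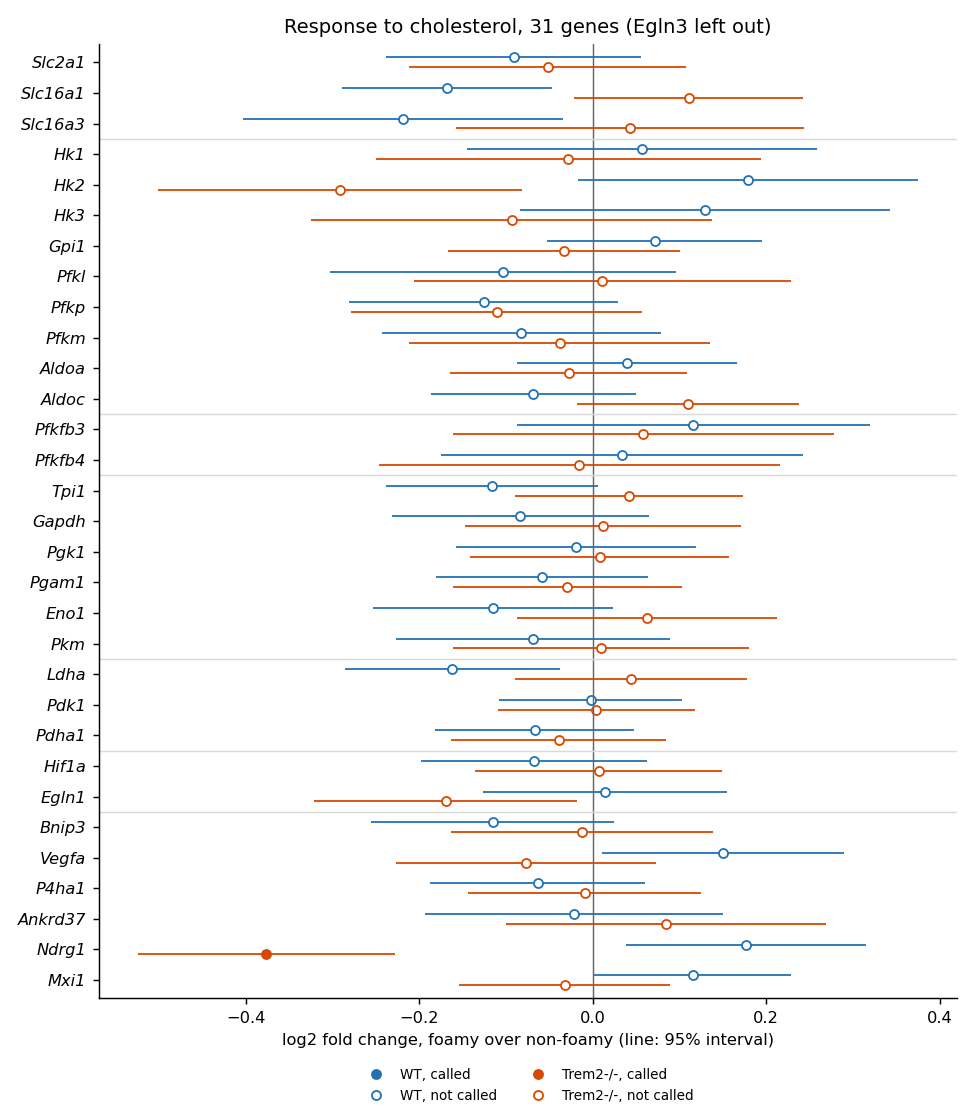
Change from non-foamy to foamy cells for 31 members in pathway order, in WT (blue) and Trem2-/- cells (orange), as log2 fold change with its 95% interval; filled points were called and open points were not. Ndrg1 in Trem2-/- cells is the only filled point.

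In *Trem2*-/- cells, only *Ndrg1* was called among 32 members, and 0.140% of all genes were. Log2 changes ran from −0.38 to 0.11, and 29 of 31 intervals lay within 0.5 of 0 on either side. The groups were apart at *Ndrg1* and *Hk2*, against 9.26% of all genes. *Hk2* changed by −0.29 (s.e. 0.10, adjusted p = 0.616). Without the 3 libraries *Hk2* was called as well (−0.25, adjusted p = 0.0402).

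*Ndrg1* (chromosome 15, 66929318 to 66969640, minus strand), a gene that responds to stress and hypoxia, was the member on which genotype and cholesterol depended on each other. Its level was 241, 249, 222 and 214 CPM in WT non-foamy, 282, 275, 249 and 240.3 CPM in WT foamy, 324, 338 and 351 CPM in *Trem2*-/- non-foamy and 256, 281, 257 and 246 CPM in *Trem2*-/- foamy libraries. Only the *Trem2*-/- non-foamy group stood apart, above every other library, and the other 3 groups overlapped. *Trem2*-/- cells were thus higher without cholesterol (0.55, s.e. 0.071, adjusted p = 1.65e-06) and not called with it (−0.0080, s.e. 0.066, adjusted p = 0.945). Cholesterol lowered it in *Trem2*-/- cells (−0.38, s.e. 0.071, adjusted p = 0.0273), and the change in WT cells was not called (0.18, s.e. 0.067, adjusted p = 0.164). The difference between the responses was −0.55 (s.e. 0.098, adjusted p = 0.00223), the only one called among the members, where 3.64% of all genes were called. It held in all 22 alternative fits, whereas the fall within *Trem2*-/- cells lost its call with scaling by total counts alone and without any 1 of its 7 libraries except knockout foamy replicate 2 (adjusted p 0.0818 to 0.252). Without the 3 farthest libraries the difference between the responses was called at 8 members: the response of *Trem2*-/- cells minus that of WT cells was negative for *Ndrg1* (−0.47) and positive for *Slc16a1*, *Slc16a3*, *Pfkl*, *Aldoc*, *Eno1*, *Pkm* and *Ldha* (0.22 to 0.44). In that fit 10.8% of all genes were called. These signs belong to the responses, not to the levels.

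Genes around the module were counted in the same way. The counts stand beside 21.0% of all genes called higher and 22.6% lower without cholesterol, and 14.3% and 15.9% with it. The median log2 difference without cholesterol was −0.084 over the other glycolysis genes tested, 0.037 over the transporters, −0.32 over the pentose phosphate pathway, −0.13 over pyruvate entry, 0.17 over the HIF machinery and 0.12 over further HIF targets, beside 0.017 over all genes. With cholesterol these medians were −0.0079, −0.34, −0.11, −0.0055, 0.15 and 0.043 in the same order, beside 0.00033 over all genes. Of 11 other glycolysis genes tested, 1 was higher and 4 lower in *Trem2*-/- cells without cholesterol and 1 and 3 with it. *Tigar*, a phosphatase that slows glycolysis, differed by −0.94 (s.e. 0.078, adjusted p = 2.11e-09) without and −0.50 (s.e. 0.071, adjusted p = 1.02e-05) with cholesterol. *Pfkfb2*, a relative of *Pfkfb3*, differed by 0.78 (s.e. 0.11, adjusted p = 4.44e-06) in medium alone and 0.38 (s.e. 0.10, adjusted p = 0.00724) in foamy cells. Of 8 other transporters, 1 was higher and 3 lower in each condition. *Slc2a6*, a sugar carrier of myeloid cells, differed by −0.95 (s.e. 0.12, adjusted p = 8.95e-07) without and −0.71 (s.e. 0.11, adjusted p = 2.82e-05) with cholesterol, while *Bsg*, the chaperone of MCT1 and MCT4, differed by 0.29 (s.e. 0.061, adjusted p = 0.000831) with cholesterol. The pentose phosphate pathway, whose oxidative arm leaves glycolysis at glucose 6-phosphate, had 5 of 8 genes lower without cholesterol, and 1 lower and 1 higher with it. *G6pdx*, its first enzyme, differed by −0.31 (s.e. 0.059, adjusted p = 0.000174) without cholesterol. Of 12 genes for pyruvate entry into mitochondria, 1 was higher and 4 lower without cholesterol, and 1 and 2 with it.

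Of 6 other genes of the HIF machinery, 2 were called in each condition, each of them higher. Over all genes 43.6% were called without cholesterol, 21.0% higher and 22.6% lower. With cholesterol 30.2% were called, 14.3% higher and 15.9% lower. *Arnt*, the partner of *Hif1a*, was higher by 0.58 (s.e. 0.077, adjusted p = 1.65e-06) without and 0.28 (s.e. 0.071, adjusted p = 0.0041) with cholesterol, as was *Epas1*, which encodes HIF-2 alpha, without cholesterol (0.59, s.e. 0.14, adjusted p = 0.0016). Of 31 further HIF targets, 13 were higher and 6 lower in *Trem2*-/- cells given medium alone, and 12 and 2 in foamy ones. *Bhlhe40*, a circadian repressor, differed by 0.82 (s.e. 0.068, adjusted p = 1.89e-09) without cholesterol. *Higd1a*, a mitochondrial protein, differed by −1.25 (s.e. 0.092, adjusted p = 3.34e-10) without and −0.58 (s.e. 0.083, adjusted p = 1.43e-05) with cholesterol. In WT cells 4 of these targets fell with cholesterol: *Higd1a*, *Ero1l*, *Fam162a* and *Car12*. In that comparison 2.80% of all genes were called.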

How the data were processed

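Raw read counts per gene were deposited by the authors, 1 table per library and 15 in all. Per the study's methods and labels, TruSeq libraries were sequenced on a NovaSeq and processed in the CHURP pipeline (Trimmomatic, HISAT2, SAMTools and featureCounts) against GRCm38 with Ensembl release 102 annotation (mm10 per the labels). Strand setting and multi-mapping are not given in the sources used here. Each table column was matched to its library by the library's own label.

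Counts were tested with edgeR 4.0.16 in R 4.3.3: genes were kept by expression (minimum count 10, smallest group 3, 14237 genes and 99.97% of counts), scaled by TMM, and fitted with the quasi-likelihood test over all 4 groups with no covariate, as 5 contrasts (cholesterol in each genotype, genotype in each condition, and the difference between the responses). The biological coefficient of variation was 10.2%. P-values were adjusted by Benjamini-Hochberg over all genes tested, and a gene was called at an adjusted p under 0.05. Intervals are 95% intervals of the log2 difference, and errors are standard errors. The groups of a gene are apart where no library of 1 group overlaps the other.

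Depth was 23538963 to 41683825 counts per library, which limits precision for low genes such as *Egln3*. A floor of 3 counts over a group stands for a group at 0, and covers counting error only. Replicate pairs differed by more than sampling noise (chi-square per gene 5.95 to 45.2 over 21 pairs), so none was counted as 1 library. Levels per kilobase use exon lengths of GENCODE M21 (GRCm38), which held 99.5% of the rows. Promoters are RefSeq sequence of GRCm38.p6, 250 bases before the start. In simulated data for the response of WT cells (13981 genes), edgeR recovered 95% of 100 genes changed by 1 and 80% of 100 genes changed by 0.5 on the log2 scale, and 3.31% of its calls were false. Of the DESeq2 calls in the same data, 11.8% were false. The simulation held no library far from its group and no change smaller than 0.5. It therefore does not tell how smaller changes, such as those of the members in WT cells, would be recovered.

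The members and lists were chosen with earlier results of these data known. Every member is described. Of the other lists, up to 5 called genes per list and comparison with a mean of at least 1 CPM over all libraries, ranked by size of difference, were open to be named. Marker genes and the targeted gene are named as checks, and the genes beside *Egln3* and the promoters were chosen after their values were seen. Alternatives were RLE factors, total counts alone, DESeq2 1.42.0, no filter, at least 10 counts in every library, a fit of only the groups compared, a replicate block and leaving out each library in turn. Leaving out the 3 farthest libraries together was chosen after seeing the data.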

Additional observations from a re-analysis of the deposited data

Results flagged for a closer look

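In 95 groups of 4 libraries (the *Trem2*-/- non-foamy group of 3 was not checked), 6 held 1 library far from the others by Dixon's test at the 95% level, where chance flags about 1 group in 20. *Trem2*-/- foamy replicate 4 was the low library for 3 genes, at 103 CPM of *Slc2a1* against 121 to 123, 113 CPM of *Slc16a3* against 156 to 162 and 1445 CPM of *Tpi1* against 1585 to 1613. WT foamy replicate 4 had 183 CPM of *Slc16a1* against 167 to 169, and WT foamy replicate 1 had 75.8 CPM of *Hk1* against 62.5 to 64.7. *Trem2*-/- foamy replicate 2 had 158 CPM of *Egln1* against 138 to 142. Of these libraries, 2 are among the 3 farthest from their groups over all genes.

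*Ndrg1* was flagged because its response to cholesterol differed between the genotypes by the interaction test, with a log2 difference of −0.55 between the responses (edgeR, adjusted p = 0.00223).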

How the results depend on the processing

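No call of a member changed direction under any alternative. Of the 21 and 19 genotype calls without and with cholesterol, 15 and 9 held in every alternative that tested the gene. *Egln3* is among both, although it was not tested with at least 10 counts in every library. The counts ranged from 18 to 22 and from 15 to 17 when 1 library was left out. For the response of WT cells (0 calls) DESeq2 called 2 members (6.29% of all genes) and the fit without the 3 farthest libraries called 6 (8.69%); leaving out 1 library gave 0 to 1. For the response of *Trem2*-/- cells (1 call), total counts alone gave 0, the fit without the 3 libraries 2 (0.896%), and leaving out 1 library 0 to 1. For the difference between the responses (1 call), DESeq2 gave 4 (6.80% of all genes called), no filter 2 (3.18%), the fit without the 3 libraries 8 (10.8%), and leaving out 1 library 1 to 2. The cause was not tested. With total counts alone the share of genotype calls that were higher was 26.3% without and 18.8% with cholesterol, against 47.6% and 52.6%.

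With the replicate number as a block, 0 and 1 members were called for the responses of WT and *Trem2*-/- cells, 20 and 19 for the genotype without and with cholesterol, and 1 for the difference. Over all genes the difference had 294 calls with the block and 518 without it. Correlations of same-numbered libraries ran from −0.077 to 0.143, so the number was not taken as a pairing.

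Undivided by exon length, isozyme shares moved (WT cells without and with cholesterol, then the knockout cells likewise): *Hk1* 23.8%, 22.8%, 14.4% and 15.8%, *Hk2* 28.3%, 29.5%, 42.2% and 38.8%, *Hk3* 47.9%, 47.7%, 43.5% and 45.5%, and *Pfkm* 9.51%, 9.67%, 13.3% and 13.6%. The order between genotypes stayed the same for these 4 genes. Depth limits *Egln3* and the 4 untested members most.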

Other observations

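The nearest tested protein-coding genes on either side of *Egln3* on chromosome 12 were looked at because it had no counts in the 7 knockout libraries, and were chosen after that was seen. *Sptssa* (54645392 to 54656573, GRCm38) stood at 149.5 to 188 CPM in WT and 153 to 180 CPM in *Trem2*-/- libraries, with log2 differences of −0.019 and −0.031 without and with cholesterol (edgeR, adjusted p = 0.877 and 0.806). *Akap6* (52699383 to 53155599) stood at 6.54 to 8.87 CPM in WT and 4.94 to 7.15 CPM in *Trem2*-/- libraries, with log2 differences of −0.27 and −0.51 (adjusted p = 0.113 and 0.00368). Both genes were thus read in every knockout library. They lie outside *Egln3* (54178981 to 54203860), so their counts do not describe that interval. The cause of its missing counts was not tested.

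Among further HIF targets, the difference between the responses of the genotypes was called for *Higd1a*, *Hilpda*, *Fam162a* and *Car12*, where the response of *Trem2*-/- cells minus that of WT cells was positive, and for *Bhlhe40*, a circadian repressor, where it was negative. It was 0.68 for *Higd1a* (edgeR, adjusted p = 0.00281), whose mean level was 141 and 103 CPM in WT and 59.3 and 69.0 CPM in *Trem2*-/- cells without and with cholesterol. Of all genes, 3.64% were called for this difference.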
